A study of Mus musculus with 10 samples.

Results

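The genes examined here were the 7 that write, oxidize and remove cytosine methylation in the mouse: Dnmt1, Dnmt3a and Dnmt3b (DNA methyltransferases), Tet1, Tet2 and Tet3 (TET dioxygenases) and Tdg (thymine DNA glycosylase). They were chosen by gene symbol, 7 of the 22380 genes in the tables, and were represented by 51 of the 64019 transcripts. All 7 passed the filter on low counts in all 4 comparisons. The data were bulk RNA-seq of germinal center B cells from C57Bl6/N mice that had been immunized with NP-OVA, a hapten coupled to ovalbumin, and the cells were isolated as NP-binding, GL7+ and IgD-. The samples were 2 ZBTB38 WT libraries (Zbtb38 fl/fl without Cre), 2 ZBTB38 HET libraries (Zbtb38 fl/+ with Vav-Cre) and 6 ZBTB38 KO libraries (Zbtb38 fl/fl with Vav-Cre). Vav-Cre acts in hematopoietic cells in general rather than in B cells alone, so the deletion was not limited to these cells, and the floxed allele came from a single founder line. Since WT mice carried no Cre and both other groups did, WT against KO compared Cre as well as the deletion, and these cannot be told apart in that comparison. The same holds for WT against HET, and the pooled WT and HET controls mix libraries without and with Cre. Only HET against KO compared groups that both carried Cre. Libraries are named below by group and replicate (WT1, HET2, KO6).

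ZBTB38 is a BTB-domain zinc finger protein that binds methylated CpG sites and can repress or activate transcription, which is the reason for reading the methylation enzymes in its absence. Dnmt1 copies methylation onto the new strand after DNA replication, with Uhrf1 bringing it to hemimethylated sites. Dnmt3a and Dnmt3b methylate previously unmethylated sites. TET enzymes oxidize methylated cytosine in steps, using iron, oxygen and alpha-ketoglutarate, and TDG cuts out the most oxidized forms, after which base excision repair restores cytosine. In B cells Dnmt1 is a gene of dividing cells such as the centroblasts of the germinal center, and Tet2 is known as a gene whose loss favors lymphoma. No methylation was measured in these libraries, so all values are RNA levels.

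The libraries held between 26612431 and 41059082 estimated reads assigned to transcripts. Zbtb38 itself, the deleted gene, was at 162 and 152 CPM (counts scaled to library size) in WT, 117 and 106 in HET and 18.6 to 50.3 in KO, so every KO library lay below every other library and the labels held. The estimates cover whole transcripts and not the floxed exon alone. KO6 stood apart, with a median correlation of 0.954 with the other libraries over all genes, where the others had 0.971 to 0.983. All 6 germinal center B cell markers were detected, with a summed level of 1534 to 3189 CPM. Markers of other cells differed between libraries. The 5 myeloid markers summed to 488 and 406 CPM in WT, 75.1 and 68.7 in HET and 53.6 to 672 in KO. The 7 T cell markers other than Lck summed to 114 and 109 CPM in WT, 21.2 and 30.5 in HET and 33.3 to 88.1 in KO. The 5 naive B cell markers summed to 986 and 1019 CPM in WT, 749 and 743 in HET and 624 to 1329 in KO. The 4 plasma cell markers summed to 1148 to 1540 CPM in WT and HET and 1131 to 1716 in KO, and the 5 erythroid markers to 35.5 to 57.1 CPM and 55.6 to 96.5. No marker of these lists was at 0 in all libraries. In bulk RNA, fewer cells of a type and less RNA per cell cannot be told apart.

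Dnmt1 (ENSMUSG00000004099.16) lies at chr9:20907209-20959888 on the minus strand (GRCm38, Gencode vM21), on the same chromosome as Zbtb38. Dnmt3a lies at chr12:3806007-3914443 and Dnmt3b at chr2:153649450-153687730, both on the plus strand. Tet1 is at chr10:62804570-62908996, Tet2 at chr3:133463679-133545139 and Tet3 at chr6:83362373-83459084, all on the minus strand, and Tdg is at chr10:82629828-82650799 on the plus strand. Dnmt1 and Dnmt3a each have widely separated start sites that give different proteins, and their transcripts are grouped by annotated start below. The sequences before these starts are shown 5′ to 3′ along the gene, in lower case with each CpG, the dinucleotide these enzymes act on, in capitals (RefSeq, GRCm38.p6). Each precedes the start it is named for and overlaps no exon of a quantified transcript. The first precedes the somatic first exon of Dnmt1 (chr9:20952980-20953229), the second the upstream first exon of Dnmt1 (chr9:20959889-20960138), the third the upstream start of Dnmt3a (chr12:3806730-3806979) and the fourth its internal start (chr12:3891494-3891727).
Dnmt1 somatic start: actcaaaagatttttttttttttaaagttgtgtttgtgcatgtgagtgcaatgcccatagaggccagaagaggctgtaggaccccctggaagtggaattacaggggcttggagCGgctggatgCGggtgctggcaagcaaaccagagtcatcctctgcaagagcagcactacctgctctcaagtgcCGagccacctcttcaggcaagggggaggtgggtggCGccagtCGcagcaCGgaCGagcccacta
Dnmt1 upstream start: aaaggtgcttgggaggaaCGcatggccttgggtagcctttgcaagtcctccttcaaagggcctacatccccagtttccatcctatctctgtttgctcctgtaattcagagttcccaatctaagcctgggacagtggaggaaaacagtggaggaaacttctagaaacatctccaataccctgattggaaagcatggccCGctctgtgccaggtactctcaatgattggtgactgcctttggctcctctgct
Dnmt3a upstream start: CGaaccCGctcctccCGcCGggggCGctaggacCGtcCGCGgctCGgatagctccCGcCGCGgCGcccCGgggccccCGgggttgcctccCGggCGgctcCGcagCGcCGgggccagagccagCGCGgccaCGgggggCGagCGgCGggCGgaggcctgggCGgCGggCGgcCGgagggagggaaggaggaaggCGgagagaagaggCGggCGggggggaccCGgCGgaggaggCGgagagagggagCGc
Dnmt3a internal start: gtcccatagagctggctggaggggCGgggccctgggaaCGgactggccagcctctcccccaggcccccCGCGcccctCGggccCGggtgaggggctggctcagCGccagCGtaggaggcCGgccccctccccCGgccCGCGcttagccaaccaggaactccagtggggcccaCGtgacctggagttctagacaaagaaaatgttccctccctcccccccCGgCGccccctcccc

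The motif counted was CG, which reads the same on both strands, in the 250 bases before each RefSeq start, and the median over 32851 such windows was 6. The window of the Dnmt1 somatic start held 7 and that of the upstream start held 2, counts that 46.3% and 81.2% of all windows reached. The remaining Dnmt1 window, whose start lies just behind the first exon of the somatic form and which overlaps that exon in 166 bases, held 26 (9.59% of windows reached that). Around Dnmt3a the upstream windows held 38 and 40 CG, reached by 1.88% and 1.31% of windows, and the window of the internal start held 15 (27.3%). The Tet2 window had the most CG of the 7 genes with 51 in 250 bases, reached by 0.067% of windows. Those of Dnmt3b, Tdg, Tet3 and Tet1 held 21, 19, 17 and 15.

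Levels of the 7 genes were compared on the TPM scale, which divides by transcript length. Dnmt1 was the most abundant, at 145 ± 43.2 TPM (SD, n = 10 libraries), above 91.2% of the genes that passed the filter in the 10 libraries. Tdg followed at 84.4 ± 16.5 TPM and was below Dnmt1 in 10 of 10 libraries. Dnmt3a (15.1 ± 4.49 TPM) was above Tet3 (9.28 ± 2.55 TPM) in 9 of 10 libraries. Tet3 was in turn above Dnmt3b in 9 of 10. Dnmt3b (2.87 ± 0.947 TPM) and Tet2 (2.86 ± 0.697 TPM) could not be ordered, with Dnmt3b the higher in 4 of 10 libraries. Tet1 was lowest, at 0.295 ± 0.322 TPM, and ranged from 0.0105 to 1.04 TPM. The SDs include the differences between genotypes and the order is a description. Short annotated fragments enter these TPM sums and weigh heavily on few reads, as shown for Tet2 and Tet3 below. Tet1 was at 0.333 TPM from 3.11 estimated reads in KO1 and at 0.0386 TPM from 12.5 in HET1.

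**Figure D1:**
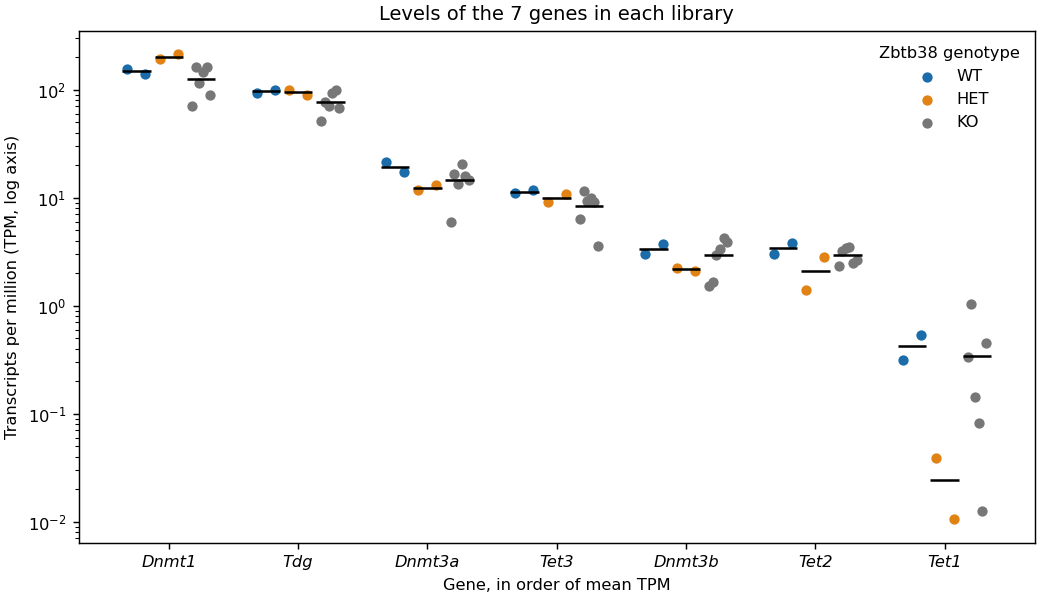
TPM on a log axis of the 7 genes in each of the 10 libraries, colored by Zbtb38 genotype, with a line at each genotype mean. Dnmt1 and Tdg lie above the other genes in every library, and Tet1 spreads from 0.0105 to 1.04 TPM.

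Within the methyltransferases, Dnmt1 made up 86.5% and 86.9% of the summed TPM in WT, 93.2% and 93.3% in HET and 82.9% to 90.5% in KO, so both HET libraries lay above all others. The de novo enzyme Dnmt3a made up 10.8% and 11.8% in WT, 5.69% and 5.74% in HET and 7.54% to 13.5% in KO. Dnmt3b contributed at most 3.6% in any library. Within the TET family, Tet3 made up 73% and 76.7% of the summed TPM in WT, 79.3% and 86.4% in HET and 53.9% to 78.6% in KO. Tet2 gave 13.3% to 39.4%, and Tet1 at most 6.73%. Short fragments enter these shares of TPM as well. The summed TPM of the methyltransferases was 171 ± 13.2 in WT, 216 ± 15.6 in HET (SD, n = 2 each) and 142 ± 43.3 in KO (SD, n = 6), and that of the TET family was 15.2 ± 1.3, 12.2 ± 2.17 and 11.6 ± 3.28.

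The comparisons between genotypes were made on TMM-scaled CPM with edgeR's quasi-likelihood test over all genes, with Benjamini-Hochberg adjustment and a threshold of 0.1. None of the 7 genes passed it in any of the 4 comparisons. Of all genes tested, 1 of 14203 passed in WT against KO (0.00704%) and 1 of 13347 in WT plus HET against KO (0.00749%), which was Zbtb38 in each. In HET against KO and in WT against HET, 1 of 14354 passed (0.00697% in each), and this was Hnrnpll, which was at 0 CPM in both HET libraries. It was named after its values were seen. At an unadjusted p under 0.05, none of the 7 genes fell below the mark in WT against KO, beside 2.19% of all genes. Dnmt1 alone did so in WT plus HET against KO, beside 6.3%, and in HET against KO, beside 10.2%, while none did in WT against HET, beside 6.42%. The comparisons share libraries and are not independent of each other. The median log2 fold change of the 7 genes was 0.14 in WT against KO, -0.14 in WT plus HET against KO, -0.46 in HET against KO and 0.29 in WT against HET, where the medians over all genes were -0.01, -0.02, -0.07 and 0.01.

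**Figure D2:**
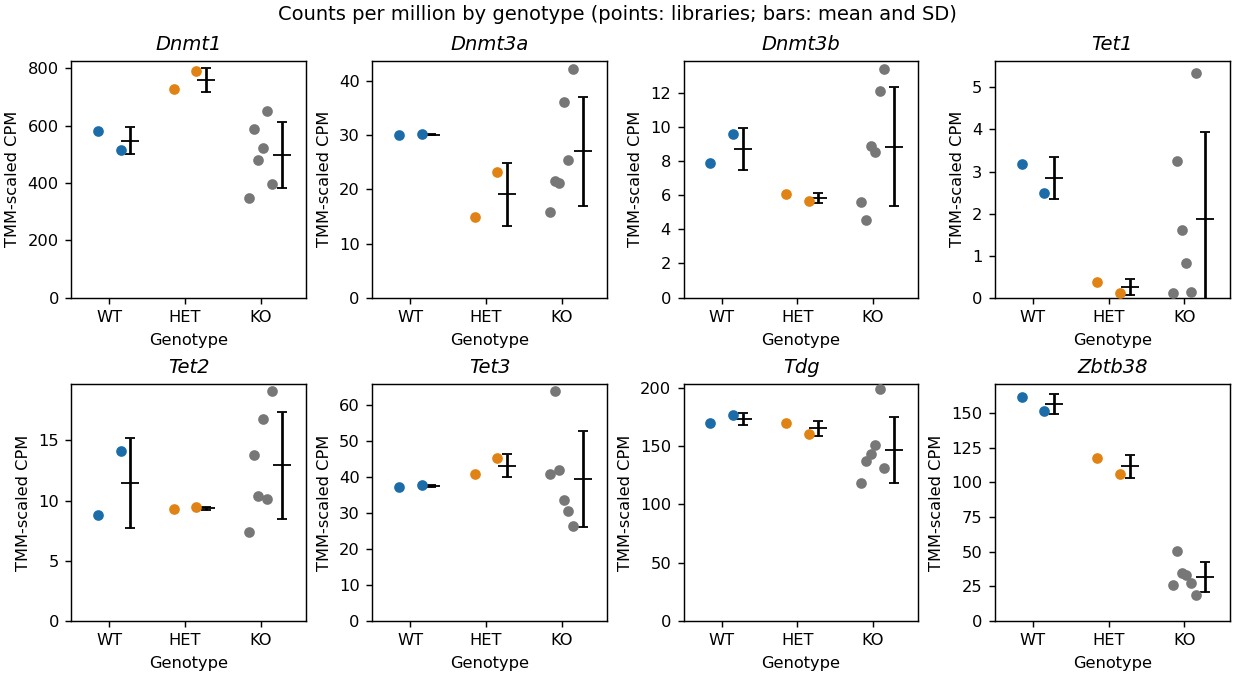
TMM-scaled CPM of the 7 genes and of Zbtb38 by genotype, with a point per library and the mean and SD beside them (the lower end of the Tet1 KO bar is cut off at 0). Zbtb38 separates KO from the other libraries, and Dnmt1 is higher in both HET libraries than in the 6 KO libraries.

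Dnmt1 was at 581 and 514 CPM in WT, at 730 and 790 in HET, and at 347, 588, 481, 524, 653 and 396 in KO1 to KO6. Both HET libraries lay above all others, while both WT libraries lay inside the KO range. The log2 fold change of WT over KO was 0.14 (SE 0.219, 95% interval -0.35 to 0.62, edgeR adjusted p = 0.999). That of HET over KO was 0.61 (SE 0.202, interval 0.17 to 1.05, unadjusted p = 0.0109, edgeR adjusted p = 0.373). With WT and HET as one control group it was 0.39 (SE 0.179, interval 0.00 to 0.78, unadjusted p = 0.0492, edgeR adjusted p = 0.744), and its adjusted p over 20 alternative settings ran from 0.539 to 0.992. Without KO6 the latter value was 0.34 (edgeR adjusted p = 0.818), and without KO1, the lowest library, it was 0.31 (edgeR adjusted p = 0.893), and its unadjusted p was then above 0.05 in each case. WT over HET was -0.47 (SE 0.256, edgeR adjusted p = 0.806) with the spread taken over all 10 libraries. Fitting the WT and HET libraries alone gave -0.46 (edgeR adjusted p = 0.0738), past the threshold. That fit called many more genes than the main fit, which called 1, so the pass is not particular to Dnmt1. The counts are given at the end.

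Genes of cell division were read beside Dnmt1. The 12 proliferation genes summed to 5338 to 6225 CPM in WT, 7152 to 7360 in HET and 5110 to 7237 in KO. In HET against KO, 11 of the 12 had a positive fold change, with a median log2 value of 0.28 where the median over all genes was -0.07, and 3 had an unadjusted p under 0.05 (beside 10.2% of all genes). None passed the adjusted threshold. Top2a, the topoisomerase that untangles replicated chromosomes, was at 804 and 766 CPM in HET, 462 to 583 in WT and 427 to 645 in KO. Uhrf1, the Dnmt1 partner, was at 506 and 595 CPM in HET, 400 to 434 in WT and 337 to 536 in KO, and it was picked for this after its values were seen. The part of cell division in the Dnmt1 values was not tested. The 3 genes whose levels followed Dnmt1 most closely over the 10 libraries were Bub1b, a kinase of the mitotic spindle checkpoint (Pearson r = 0.982 of log2(CPM + 1)), Plxnb2 (0.977) and Epb41 (0.975). These were the highest of all genes and are a description.

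Dnmt3a was at 30.1 and 30.2 CPM in WT, 15 and 23.2 in HET, and 15.8, 21.6, 21.2, 36.1, 25.4 and 42.3 in KO1 to KO6. The KO libraries enclosed all the others except HET1. WT over KO was 0.16 on the log2 scale (SE 0.336, interval -0.59 to 0.90, edgeR adjusted p = 0.999). Over 18 alternatives it ran from 0.04, without KO1, to 0.71, with a replicate block (edgeR adjusted p = 0.633 to 1). The pooled controls over KO were -0.14 (SE 0.286, adjusted p = 0.927 by edgeR), a sign kept under 14 of 20 alternatives. WT over HET was 0.66 (SE 0.418, interval -0.25 to 1.57, edgeR adjusted p = 0.837). The myeloid and T cell marker sums given above were lower in both HET libraries than in both WT libraries as well, and their part in this was not tested.

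Dnmt3b was at 7.85 and 9.57 CPM in WT, 6.06 and 5.64 in HET, and 5.58, 4.54, 8.87, 8.51, 12.1 and 13.4 in KO1 to KO6. All 4 control libraries lay inside the KO range. WT over KO was -0.02 (SE 0.435, interval -0.98 to 0.94, edgeR adjusted p = 0.999), so a change of up to nearly 2-fold either way lay inside the interval (fold 0.51 to 1.92). Over the 10 libraries Dnmt3b and Tet3 moved in opposite directions (Pearson r = -0.88), Dnmt3a and Tet2 together (0.77) and Dnmt1 and Tdg together (0.72), as a description over points that share the genotype groups. These were picked as the most extreme of all pairs of these enzymes. KO6, the library that stood apart, had the highest Dnmt3a, Dnmt3b and Tet2 CPM and the lowest Tet3 CPM. Its part in these values was not tested.

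Tet1 rested on few reads. The estimated counts were 133 and 72 in WT, 12.5 and 3.01 in HET, and 3.11, 90.1, 49, 25.7, 4 and 178 in KO1 to KO6. KO libraries ran from 3.11 to 178, the highest of all, with HET2 lowest, and both HET libraries were below both WT libraries. WT over KO was 0.60 (SE 1.17, interval -1.98 to 3.18, edgeR adjusted p = 0.999). WT over HET was 3.50 (SE 1.63, interval -0.07 to 7.07, unadjusted p = 0.0537, edgeR adjusted p = 0.781). Fitting the WT and HET libraries alone gave 3.51 (edgeR adjusted p = 0.11). None of these values passed the threshold.

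Tet2 was at 8.83 and 14.1 CPM in WT, 9.27 and 9.44 in HET, and 7.36, 13.8, 10.4, 16.8, 10.1 and 19.1 in KO1 to KO6. The control libraries lay inside the KO range. WT over KO was -0.17 (SE 0.389, interval -1.03 to 0.69, edgeR adjusted p = 0.999). Tet3, the most abundant TET enzyme here, was at 37.3 and 37.7 CPM in WT, 40.8 and 45.3 in HET, and 40.7, 63.9, 41.8, 33.5, 30.4 and 26.3 in KO1 to KO6. WT over KO was -0.07 (SE 0.299, interval -0.73 to 0.59, edgeR adjusted p = 0.999), and the sign of this value turned when TPM or length-scaled counts were used.

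Tdg was at 170 and 177 CPM in WT, 170.0 and 161 in HET, and 118, 137, 144, 151, 199 and 131 in KO1 to KO6. The controls lay in a narrow band above 5 of the 6 KO libraries, and KO5 was the highest of all 10. WT over KO was 0.24 (SE 0.182, interval -0.16 to 0.64, edgeR adjusted p = 0.999), and the pooled controls over KO were 0.21 (SE 0.132, interval -0.08 to 0.49, unadjusted p = 0.142, edgeR adjusted p = 0.749). Without KO5 these values were 0.35 (unadjusted p = 0.0332, edgeR adjusted p = 1) and 0.32 (unadjusted p = 0.0098, edgeR adjusted p = 0.675). With a replicate block they were 0.45 (edgeR adjusted p = 0.709) and 0.41 (edgeR adjusted p = 0.601). The Tdg value is uncertain for another reason. Of the 31-base words in its main transcript, 75.7% occur in transcripts of other genes in Gencode vM21, 66.8% in the processed copy Tdg-ps and 33.2% in Gm9855. Neither copy was among the quantified genes, so reads from them could have been assigned to Tdg. For Dnmt3b the same share was 18.5%, all with the adjacent paralog Dnmt3c, and for the other 5 genes it was at most 1.35%.

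**Figure D3:**
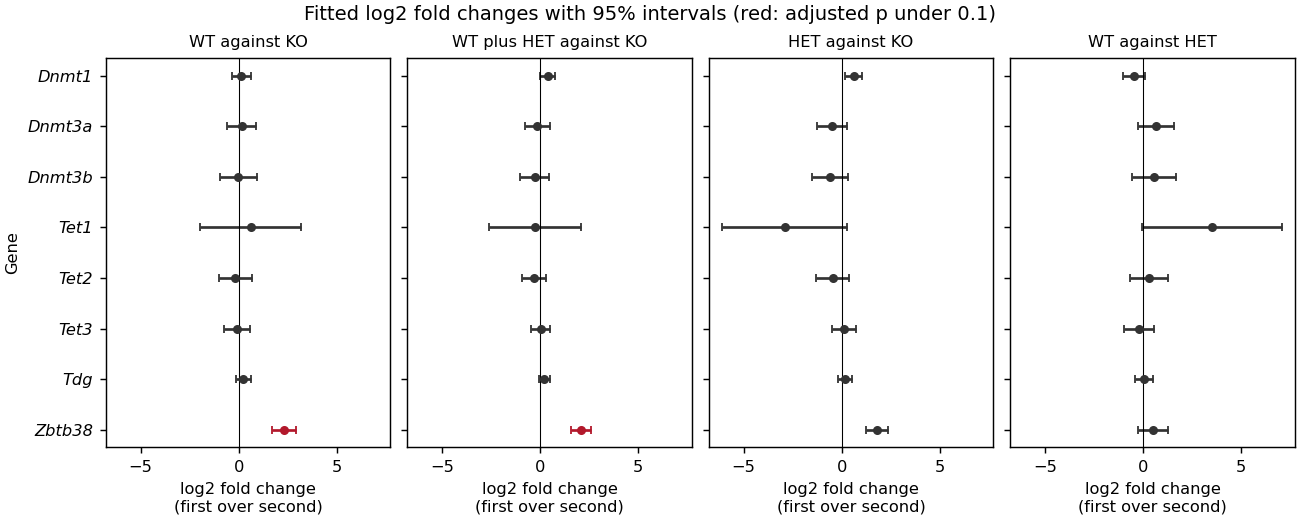
Fitted log2 fold changes (horizontal axis, first group over second) with 95% intervals for the 7 genes and Zbtb38 in the 4 comparisons, in red where the adjusted p was under 0.1. Only Zbtb38 is red, in WT against KO and WT plus HET against KO, and the Tet1 intervals are the widest.

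The transcripts of each gene were examined next. Of the 51 transcripts, 42 had reads in at least 1 library, and 20 made up at least 10% of their gene's TPM on average. In WT against KO, 24 of the 51 passed the filter and none passed the edgeR threshold, beside 0.00309% of 32377 transcripts, and none had an unadjusted p under 0.05, beside 1.75%. In WT plus HET against KO, 22 passed the filter and none passed the threshold, beside 0.00344% of 29105, and 1 had an unadjusted p under 0.05, beside 3.93%. This was ENSMUST00000174817.7, a full-length Dnmt3a form of 908 codons from the upstream start (log2 fold change -1.10, SE 0.402, unadjusted p = 0.019, edgeR adjusted p = 1). Shares of TPM were tested by a two-sided exact permutation test for the 20 transcripts, and none passed an adjusted p of 0.1 in either comparison. The smallest p that 2 against 6 libraries allow is 0.0357, and 4 against 6 allow 0.00476. Adjusted over 20 transcripts, 1 transcript alone could not pass 0.1 at the first value and could only just pass at the second. Short annotated fragments weigh heavily in TPM, since few reads over few bases give a high value. The 423-base Tet2 fragment ENSMUST00000197118.4 averaged 37.6% of Tet2 TPM from at most 10.7 estimated reads in a library.

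For Dnmt1, the somatic form ENSMUST00000004202.16 (1620 codons) averaged 67.1% of the gene's TPM and ENSMUST00000177754.8 (1501 codons) 31.4%. The latter starts 6909 bases upstream, at the position of the first exon that is known from oocytes and gives a shorter protein. The 2 forms share 5092 bases. They differ in the first exon (272 bases in the somatic form, 156 in the other) and in 3 coding bases at chr9:20940552-20940554, shown here in capitals with 15 bases on each side.
Dnmt1 ENSMUST00000004202.16: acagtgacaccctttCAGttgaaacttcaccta
Dnmt1 ENSMUST00000177754.8: acagtgacaccctttttgaaacttcaccta

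The estimated split was steady. The shorter form made up 33% ± 1.32 of Dnmt1 TPM in WT (SD, n = 2) and 30.8% ± 3.16 in KO (SD, n = 6), a difference of 2.24 points (exact permutation p = 0.357, adjusted p = 0.63). With HET added to the controls the difference was 1.59 points (exact permutation p = 0.429, adjusted p = 0.805). The files do not say how much of this share rests on reads over the first exon and how much on the 3-base difference. Starts just behind the somatic first exon gave 0.634% to 3.7% of TPM in the libraries.

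Dnmt3a transcripts from the internal start made up 48.8% ± 11.2 of the gene's TPM in WT, 51.8% ± 0.023 in HET (SD, n = 2 each) and 43.5% ± 9.56 in KO (SD, n = 6). Those from upstream starts made up 32.8% ± 1.21, 29.1% ± 8.9 and 29.5% ± 9.01, and the rest was fragments that start elsewhere. In estimated reads, which are not divided by length, the order of the classes in KO was the other way. KO had 40.2% ± 7.74 from the internal start and 55% ± 6.14 from upstream starts. WT had 48.4% ± 18.4 and 48.2% ± 17.2, and HET 53.6% ± 12.8 and 41.4% ± 16.2. The 908-codon form ENSMUST00000174817.7 holds 5649 bases at its 3′ end that the internal-start form ENSMUST00000172689.7 lacks. The classes thus differ in more than the start, and the part of these bases in the split was not tested. The internal start lies 84568 bases downstream and gives the short protein known as Dnmt3a2, of 689 codons, which lacks the amino-terminal part of the 908-codon form. Its main transcript ENSMUST00000172689.7 differed by 6.72 points between WT and KO (exact permutation p = 0.429, adjusted p = 0.63). These classes of transcripts were drawn after the values were seen and are given without a test. Of 11484 exonic bases of Dnmt3a, 133 overlap the antisense gene Dnmt3aos, and since the library kit does not mark strand those reads cannot be told apart.

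Dnmt3b was quantified both with and without a pair of exons of the catalytic domain, 70 and 119 bases long (chr2:153683608-153683677 and chr2:153684359-153684477). Together they encode 63 codons, and splice forms without them are known as catalytically inactive. The 2 classes are named for this pair, but their forms also differ elsewhere. ENSMUST00000103150.9, without the pair, holds 163 and 115 bases near its 5′ end and 414 at its 3′ end that ENSMUST00000109771.1, with the pair, lacks. The latter holds 60 and 3 further bases of its own. The part of these bases in the split was not tested. Both exons of the pair are shown whole.
Dnmt3b exon of 70 bases: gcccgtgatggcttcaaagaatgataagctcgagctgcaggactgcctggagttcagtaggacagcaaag
Dnmt3b exon of 119 bases: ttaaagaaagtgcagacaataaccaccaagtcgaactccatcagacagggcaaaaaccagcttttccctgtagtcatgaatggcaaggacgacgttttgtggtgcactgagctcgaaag

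Forms with both exons gave 60.3% and 48.5% of Dnmt3b TPM in WT, 46.7% and 32.6% in HET, and 4.81%, 49.5%, 34%, 44.3%, 29.5% and 100% in KO1 to KO6. The extremes were thus both KO libraries, KO1 and KO6, and the other 8 lay between 29.5% and 60.3%. ENSMUST00000109771.1, a form with both exons, made up 54.4% ± 8.37 of Dnmt3b TPM in WT (SD, n = 2) and 18.9% ± 19 in KO (SD, n = 6). The difference was 35.5 points (exact permutation p = 0.0714, adjusted p = 0.63). With HET in the control group the difference was 27.1 points (exact permutation p = 0.0476, adjusted p = 0.571). In KO6 this form was at 0 and other forms with both exons took its place, so its share is not the share of the exons. Dnmt3b had 126 to 446 estimated reads in a library, over 10 annotated transcripts.

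**Figure D4:**
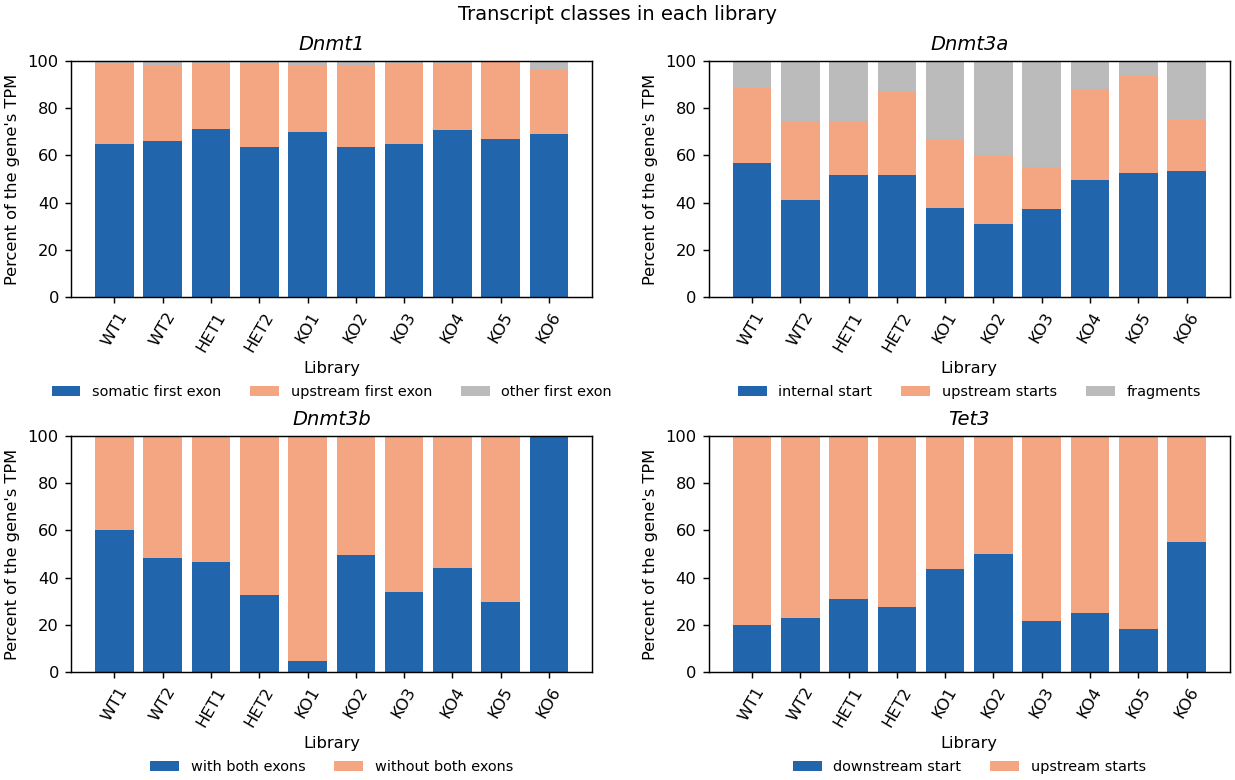
Percent of each gene's TPM (vertical axis) from classes of transcripts in each library. The classes are by annotated first exon for Dnmt1 and by annotated start for Dnmt3a and Tet3. For Dnmt3b they are with or without the exons of 70 and 119 bases. The forms of Dnmt1, Dnmt3a and Tet3 also differ outside their starts, and those of Dnmt3b outside these exons. The Dnmt1 split is nearly even over the libraries, with 63.6% to 71% assigned to the form with the somatic first exon. KO1 and KO6 are the extremes for Dnmt3b.

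Tet3 had 3 quantified transcripts. The form from the downstream start, ENSMUST00000089622.10 (1668 codons), made up 21.4% ± 1.92 of Tet3 TPM in WT, 29.4% ± 2.52 in HET (SD, n = 2 each) and 35.7% ± 15.9 in KO (SD, n = 6). The difference between WT and KO was -14.3 points (exact permutation p = 0.286, adjusted p = 0.63). The form ENSMUST00000186548.6 starts 14717 bases upstream and made up 37.8% ± 6.12 in WT and 41.9% ± 6.79 in KO. It lacks 5669 bases at the 3′ end that ENSMUST00000089622.10 holds. These 2 forms thus differ in more than the start, and the part of these bases in the shares was not tested. The third, the short fragment ENSMUST00000190295.1, made up 40.7% ± 4.19 in WT and 22.4% ± 17 in KO from at most 31.9 estimated reads in a library. In estimated reads the downstream start gave 50.4% ± 6.09 in WT, 53.9% ± 3.05 in HET and 58.6% ± 12.3 in KO, given without a test. For Tet2, the 2 full forms differ by 24 coding bases and at their ends. The one with these bases, ENSMUST00000196398.4, made up 49.3% ± 34.4 in the pooled controls (SD, n = 4) and 22.2% ± 14.4 in KO (SD, n = 6), with an exact permutation p of 0.0667 (adjusted p = 0.571). HET1 was at 100% and the other controls at 26.4% to 41.1%. WT alone was at 28% ± 2.28, which differed from KO by 5.81 points (exact permutation p = 0.536, adjusted p = 0.63). The main Tdg form ENSMUST00000092266.10 (397 codons) made up 73% ± 3.52 in WT (SD, n = 2) and 66.1% ± 6.97 in KO (SD, n = 6), a difference of 6.83 points (exact permutation p = 0.286, adjusted p = 0.63). The Tet1 shares ran from 0 to 100% between libraries on their few reads.

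The genes around these enzymes were read from 5 lists of 79 genes in all. In WT plus HET against KO, 74 were tested and none passed the adjusted threshold. At an unadjusted p under 0.05 there were 4, or 5.41%, beside the 6.3% of all genes. For the same 4 genes the 4 control libraries and the 6 KO libraries did not overlap, and 1.52% of all genes tested did not overlap either. The erythroid marker sums moved with this split, at 35.5 to 57.1 CPM in controls and 55.6 to 96.5 in KO, and 3 of the 4 erythroid markers tested had an unadjusted p under 0.05, lower in controls. Their part in these values was not tested. None of the 7 methylation enzymes was among those without overlap. In WT against KO, 3 of 75 list genes had an unadjusted p under 0.05 (4%, beside 2.19% of all genes), in HET against KO 8 of 75 (10.7%, beside 10.2%) and in WT against HET 3 of 75 (4%, beside 6.42%).

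**Figure D5:**
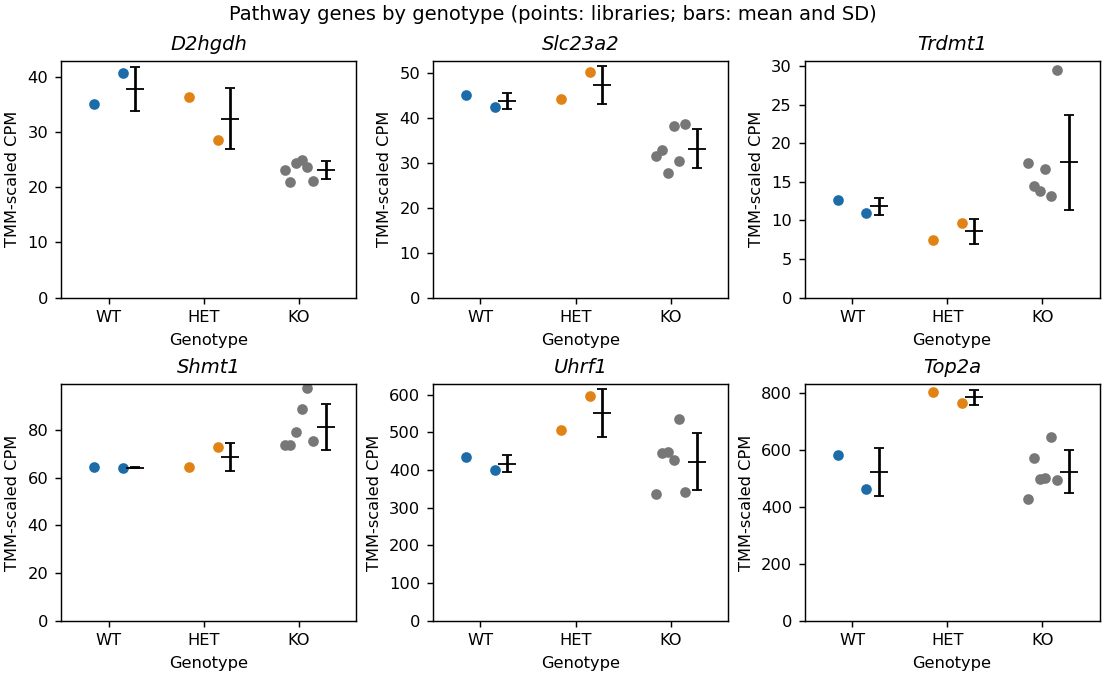
TMM-scaled CPM by genotype of 6 genes around the methylation enzymes, with a point per library and the mean and SD beside them. D2hgdh and Slc23a2 are higher, and Trdmt1 and Shmt1 lower, in the 4 WT and HET libraries than in the 6 KO libraries, while Uhrf1 and Top2a have their highest group mean in HET.

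Among the suppliers of TET cofactors, 18 of 19 genes were tested, and 2 had an unadjusted p under 0.05 (beside 6.3% of all genes), both higher in controls (median log2 fold change of the list 0.05, over all genes -0.02). D2hgdh, the mitochondrial enzyme that turns D-2-hydroxyglutarate into alpha-ketoglutarate, was at 35 and 40.6 CPM in WT, 28.5 and 36.3 in HET and 21 to 24.9 in KO. All controls lay above all KO libraries, with a log2 fold change of 0.61 (SE 0.137, interval 0.31 to 0.90, unadjusted p = 0.000742, edgeR adjusted p = 0.744). Over the 20 alternatives its log2 fold change was 0.42 to 0.70. Its adjusted p was 0.00292 to 0.992, the smallest from DESeq2, where it passed the threshold. Slc23a2, a vitamin C transporter, was at 42.5 and 45.1 CPM in WT, 44.3 and 50.3 in HET and 27.8 to 38.6 in KO (log2 fold change 0.45, SE 0.132, unadjusted p = 0.00471, edgeR adjusted p = 0.744). Vitamin C is a cofactor of the TET enzymes.

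Of the partners of methylation, 13 of 14 were tested and 1 had an unadjusted p under 0.05 (7.69%, beside 6.3% of all genes). Trdmt1, once named Dnmt2 and known to methylate tRNA rather than DNA, was at 7.46 to 12.6 CPM in the controls and 13.1 to 29.5 in KO (log2 fold change -0.78, SE 0.266, unadjusted p = 0.0117, edgeR adjusted p = 0.744). Nsd1, a histone methyltransferase whose mark guides Dnmt3a, was at 85.8 to 100 CPM in controls and 57.7 to 90 in KO (edgeR adjusted p = 0.744). The median log2 fold change of the list was 0.19, where that over all genes was -0.02. In the S-adenosylmethionine cycle, which supplies the methyl group, 14 of 16 genes were tested, with a median of 0.01. Shmt1, a cytosolic enzyme of the folate cycle, was at 64.1 to 72.9 CPM in controls and 73.6 to 97.5 in KO (log2 fold change -0.29, SE 0.113, unadjusted p = 0.0231, edgeR adjusted p = 0.744), and Slc3a2, a chain of amino acid transporters, was at 84 to 106 and 96.3 to 127 CPM.

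Base excision repair after TDG had 17 of 18 genes tested. None had an unadjusted p under 0.05 in any of the 4 comparisons, beside 2.19% to 10.2% of all genes. The median log2 fold change of the list was -0.03 in WT plus HET against KO, where that over all genes was -0.02. The 2 with the smallest p there were Apex1, the endonuclease that cuts the site TDG leaves, at 74.3 to 102 CPM in controls and 86.7 to 128 in KO, and Parp1, at 606 to 805 and 395 to 710 CPM (edgeR adjusted p = 0.744 for each). Of the proliferation genes Tyms, which makes thymidylate, was at 69.8 to 121 CPM in controls and 105 to 138 in KO (log2 fold change -0.31, SE 0.144, edgeR adjusted p = 0.744).

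Genes whose levels followed the other enzymes most closely were likewise listed over the 10 libraries. For Dnmt3a they were Myo7a (Pearson r = 0.976), AC163442.1 (0.970) and Os9 (0.965), and for Dnmt3b Scfd2 (0.929), a clone-named gene, ENSMUSG00000096036.2 (0.925), and Cxx1a (0.921). For Tet1 they were Olfr1250 (0.941), RP24-380G7.1 (0.927) and Hipk2 (0.917), for Tet2 Ctif (0.956), Tshr (0.941) and Olfr788 (0.940), and for Tet3 RP23-123G8.2 (0.943), Baz2b (0.926) and Actr1b (0.923). For Tdg they were Immt (0.952), Ak3 (0.949) and Heatr3 (0.948). The libraries share genotype groups and the genes were picked as the highest of all, so these values are a description.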

How the data were processed

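Total RNA of sorted germinal center B cells was made into SmartSeq libraries and sequenced as paired reads by the authors, who quantified transcripts with Salmon 0.9.1 against Gencode vM17; the processing notes also name DESeq2 2.11.40.6. The deposited files hold, per transcript, estimated counts and TPM (length- and depth-scaled abundance, per the file headers). All quantified transcripts were coding. Libraries totaled 26612431 to 41059082 estimated counts. The study counts WT and KO samples as mice.

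Estimated counts and TPM were summed per gene, counts were rounded, and edgeR 4.0.16 was run in R 4.3.3 (filterByExpr, TMM scaling, quasi-likelihood test, Benjamini-Hochberg threshold 0.1) over all genes or transcripts. WT against KO used those libraries, WT plus HET against KO pooled the controls, and the other comparisons used a term per genotype over 10 libraries. Transcript shares (at least 10% of a gene's TPM) were compared by exact permutation, adjusted over 20 transcripts. Alternatives were DESeq2 1.42.0, its size factors, other filters, length-scaled counts, limma 3.58.1 on log2(TPM + 1) and log2(TPM + 0.1), a replicate block, a threshold of 0.05 and leaving out each library. Further ones were all 10 libraries with a term per genotype, and only the libraries of the groups compared. The fits were tested on simulated data. Named list genes were the 2 with the smallest p per list in WT plus HET against KO, plus any past the threshold. Members and lists were chosen with earlier results of these data known. Positions came from Gencode vM21, which held all 51 transcripts. A marker of the sort and the list that holds it are not reported here.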

Additional observations from a re-analysis of the deposited data

Results flagged for a closer look

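In 38 checks of the 6 KO libraries (the 7 enzymes, Zbtb38, the named list genes and the 20 transcript shares), 4 had a highest or lowest library far from the other 5. Chance gives about 1.9 where values are smoothly spread, which the Tet1 shares, mostly near 0 or 100%, are not. Trdmt1 was at 29.5 CPM in KO6 and at 13.1 to 17.4 in the other KO libraries. The share of the main Tdg form ENSMUST00000092266.10 was 52.5% in KO6 and 66% to 71.6% in the others. The share of Tet1 ENSMUST00000174189.1 was 100% in KO4 and at most 28.5% in the others, and that of the Tet1 fragment ENSMUST00000218782.1 was 99.1% in KO1 and 0 in the others. The Tet1 values rest on 25.7 estimated reads in KO4 and 3.11 in KO1.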

How the results depend on the processing

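No enzyme passed the threshold under any alternative except Dnmt1 in WT against HET, where fitting those libraries alone called 1 of the 7 (log2 fold change -0.46, adjusted p = 0.0738) and 523 genes in all. The main fit of that comparison called 1 of 14354 genes (0.00697%), so the Dnmt1 pass came with far more calls over all genes. Main counts over all features were 1 in each comparison. DESeq2 called 10 genes in WT against KO, 25 in WT plus HET against KO, 505 in HET against KO and 168 in WT against HET, and 86 and 71 transcripts. HET against KO had 2 genes without a filter and 0 from its own libraries. WT against KO had 2 with all 10 libraries, 0 at the 0.05 threshold, and 0 and 3 by limma on log2(TPM + 1) and log2(TPM + 0.1), and WT plus HET against KO had 0 by both and by length-scaled counts. Leaving out 1 library gave 0 to 2, 1 to 2, 0 to 5 and 0 to 16 genes and 0 to 1 and 0 to 2 transcripts, with 16 for WT against HET reached without KO6. The transcript shares gave 0 throughout. With so few libraries the adjusted threshold was nearly out of reach for them, so this 0 says little. Some named list genes passed under an alternative. For D2hgdh the smallest adjusted p over the alternatives was 0.0117 in WT against KO and 0.00292, by DESeq2, in WT plus HET against KO. In HET against KO the smallest were 0.0279 for Top2a, by DESeq2, 0.0637 for D2hgdh, 0.0757 for Trdmt1 and 0.0773 for Slc23a2. In WT against HET it was 0.0727 for Top2a.

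Deviations from the genotype mean were little correlated between same-numbered libraries (-0.00797 to 0.127). With 2 libraries each in WT and HET these deviations mirror each other, so the check cannot settle whether replicate numbers pair the libraries. With a replicate block, 6, 0, 4 and 66 genes and 0 and 0 transcripts were called, and these log2 fold changes turned sign: Dnmt3b 0.78 and Tet2 0.15 in WT against KO, Dnmt3a 0.41, Dnmt3b 0.52, Tet1 0.37, Tet2 0.03 and Tet3 -0.35 in WT plus HET against KO, and Dnmt3a 0.02, Dnmt3b 0.21 and Tet3 -0.26 in HET against KO.

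Other sign turns were as follows. On log2(TPM + 1), log2(TPM + 0.1) and length-scaled counts, WT against KO gave 0.20, 0.28 and 0.07 for Dnmt3b, 0.18, 0.23 and 0.11 for Tet2 and 0.48, 0.54 and 0.36 for Tet3, and WT plus HET against KO gave 0.16, 0.18 and 0.04 for Dnmt3a. Tet3 was 0.17 in WT against HET on log2(TPM + 1). Leaving out 1 library gave, in WT against KO, -0.17 to 0.14 for Dnmt3b, -0.55 to 0.13 for Tet2 and -0.17 to 0.12 for Tet3, in WT plus HET against KO -0.25 to 0.04 for Dnmt3a, -0.92 to 0.40 for Tet1 and -0.06 to 0.22 for Tet3, and in WT against HET -0.08 to 0.59 for Tet2. The cause was not tested. The sign of the Dnmt1 and Tdg values held under each alternative run for a comparison (18, 20, 16 and 16). Tet1 rests on 3.01 to 178 estimated reads in a library, Dnmt3b on 126 to 446, and each control genotype on 2 libraries.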
